A study of Homo sapiens with 16 samples.

Results

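The genes described here encode syntenin and its partners in exosome formation: the adaptor SDCBP, the syndecans SDC1, SDC2, SDC3 and SDC4, the small GTPase ARF6 and the phospholipase PLD2. They were chosen by name, 7 of 39576 gene names in the tables, and SDCBP was included because its level was higher at 48 h in all 3 compound groups. Its values at 48 h are therefore given as a description, without a test, whereas its values at 4 h were tested. The other members were named for their place in the pathway, with earlier results of these data known, so their tests are not independent of those results. Of the 7 members, 6 were among the 15285 genes at or above 1 TPM, a length-normalised transcript abundance, in at least 2 libraries, and SDC2 was not.

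The cells were A549, a human lung adenocarcinoma line, carrying an overexpressed fusion of the exosome protein CD63 with the luciferase Nluc. They received the compound 5G6, 6D7 or 7F8, known only by these code names, or the solvent DMSO, and were harvested after 4 h or 48 h. The 8 groups were thus 5G6, 6D7, 7F8 and DMSO at 4 h and the same treatments at 48 h, each with 2 libraries of polyadenylated RNA that the series description calls biological replicates, and the labels give 4 µM for every treatment, DMSO included. The same overexpressing line was used throughout, no library of A549 without the fusion was analysed, and the title of the series places the study in the control of exosome release through AMPK and SREBPs.

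Exosomes are small vesicles that bud into late endosomes and leave the cell when these fuse with the plasma membrane. Syndecans are transmembrane proteoglycans with heparan sulfate chains. Once their chains and ectodomains are trimmed, their short tails cluster and bind the PDZ domains of syntenin, which also binds ALIX, an accessory protein of the ESCRT membrane-cutting machinery. ARF6 and its effector PLD2, which makes phosphatidic acid, promote the budding of this cargo into endosomes. These roles are background and were measured here only as mRNA.

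The most common ratio of coverage to FPKM among genes, which is not the same for every gene, puts the aligned sequence behind each library at 6.10 to 8.86 gigabases. The number of reads is unknown, and 13013 to 14568 genes had at least 1 TPM in each library. All 7 epithelial and A549 markers examined reached 1 TPM, although EPCAM stood only between 0.254 and 8.33 TPM. Of the fibroblast, leukocyte and endothelial markers, 1 of 6, 1 of 5 and 0 of 3 reached 1 TPM, with COL1A1 and CD14 the ones that did. The mitochondrial tRNA gene TRNC made up 15.3 to 28.6% of a library's TPM, except in the pair of 6D7 libraries of 48 h, where its listed value was 0. TPM of a library have a fixed sum, so that the values of other genes move with this share. The median gene differed from DMSO by 0.29 on the log2 scale with 6D7 at 48 h and by -0.21 with 7F8 at 48 h, and by 0.01 and 0.00 after scaling each library by median-of-ratios size factors. Values after this scaling are given beside many of the TPM values, since directions and calls of several genes depended on it.

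Syntenin was the member whose level differed most between the compounds and DMSO at 48 h. SDCBP had 284 and 345 TPM with 5G6, 451 and 449 TPM with 6D7, 316 and 355 TPM with 7F8, and 108 and 143 TPM with DMSO. Every compound library of 48 h lay above both DMSO libraries. Of all genes, 19.4% lay above DMSO without overlap with 5G6, 45.2% with 6D7 and 15.1% with 7F8. The group means were 314 ± 43.0, 450 ± 1.63, 335 ± 27.2 and 125 ± 24.7 TPM (SD, n = 2 each), a log2 difference from DMSO of 1.33 for 5G6, 1.85 for 6D7 and 1.43 for 7F8, or 2.51-fold, 3.61-fold and 2.69-fold higher. These differences chose the gene and carry no test. In bulk samples more or fewer transcripts per cell and more or fewer cells of a kind cannot be told apart. Among the 15285 genes they ranked 353rd, 267th and 227th from the highest.

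The order of the compounds in SDCBP depended on the scaling. By TPM, both 6D7 libraries of 48 h lay above those of 7F8 and of 5G6. After median-of-ratios scaling the levels were 323 and 320 with 5G6, 362 and 325 with 6D7, 385 and 386 with 7F8, and 112 and 128 with DMSO, in scaled TPM. On that scale the log2 differences from DMSO were 1.42, 1.52 and 1.68, so that 7F8 and not 6D7 was highest, while all 3 compounds stayed above DMSO.

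At 4 h the same gene was tested. SDCBP had 156 and 169 TPM with 5G6, 158 and 178 TPM with 6D7, 136 and 286 TPM with 7F8, and 120 and 146 TPM with DMSO. Both libraries of 5G6 and of 6D7 lay above DMSO, whereas 1 of the 7F8 libraries lay within the DMSO range and the other was the highest of the time point. Of all genes, 26.9% lay above DMSO without overlap with 5G6 and 16.1% with 6D7. By difference from DMSO, SDCBP ranked 4061st with 5G6, 1136th with 6D7 and 443rd with 7F8 from the highest of 15285 genes. The log2 differences were 0.29 for 5G6 (95% interval -0.33 to 0.91), 0.34 for 6D7 (-0.28 to 0.96) and 0.57 for 7F8 (-0.05 to 1.19), with adjusted p of 1, 1 and 0.989 in limma with Benjamini-Hochberg adjustment. None passed the threshold of 0.05, and the interval for 7F8 reached 1.19. Without the second 7F8 library the 7F8 difference was 0.03, and without the first it was 1.10. After scaling, the 5G6 libraries overlapped DMSO, with 153 and 149 against 123 and 156 scaled TPM. Those of 6D7, at 160 and 178, and of 7F8, at 159 and 308, lay above it. The scaled log2 differences were 0.12, 0.28 and 0.67 for 5G6, 6D7 and 7F8, and none passed. The share of all genes without overlap was taken by TPM only.

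In DMSO alone, SDCBP averaged 125 TPM at 48 h and 133 TPM at 4 h, a log2 difference of -0.10, and the libraries of the times overlapped. The differences from DMSO at 48 h exceeded those at 4 h by 1.04 for 5G6, 1.51 for 6D7 and 0.86 for 7F8 on the log2 scale, again as a description. The gene lies at chr8:58552924-58582860 on the plus strand of GRCh38, and no other gene of the tables overlaps it. Processed copies of SDCBP are named in the reference but had no row in the tables, and how reads matching several places were treated is not given in the sources used here.

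**Figure D1:**
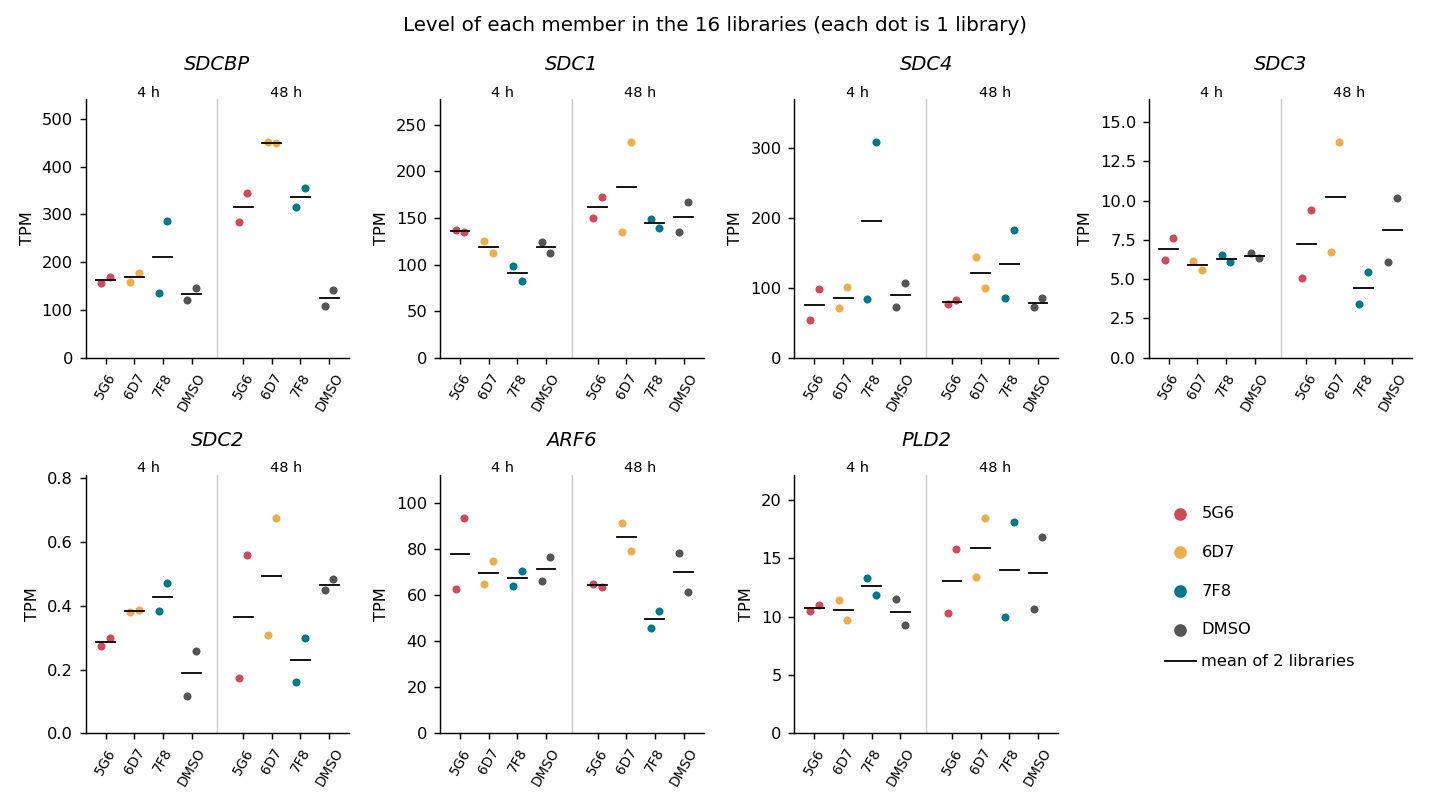
Level of the 7 members in TPM (vertical axes, starting at 0) in each library, by compound at 4 h and at 48 h; dots are libraries and bars the means of 2. SDCBP stood at 284 to 451 TPM in the 6 compound libraries of 48 h, above the DMSO libraries at 108 and 143 TPM, and no other member separated all compound libraries of 48 h from DMSO.

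Among the syndecans, SDC1 and SDC4 made up nearly all of the mRNA in this line, and neither passed the test against DMSO at either time. SDC1 encodes the main syndecan of epithelia. At 48 h it had 150 and 173 TPM with 5G6, 134 and 231 TPM with 6D7, 149 and 139 TPM with 7F8, and 134 and 168 TPM with DMSO. By TPM all compound groups overlapped DMSO. The log2 differences were 0.10, 0.23 and -0.06, with adjusted p of 0.876, 0.549 and 0.908 in limma. After scaling, the signs for 6D7 and 7F8 turned to -0.10 and 0.20. The 5G6 libraries, at 171 and 160, and those of 7F8, at 181 and 152, then lay above DMSO at 139 and 150 scaled TPM. No scaled difference passed.

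At 4 h SDC1 had 138 and 135 TPM with 5G6, 125 and 113 TPM with 6D7, 98.6 and 82.4 TPM with 7F8, and 124 and 113 TPM with DMSO. Both 5G6 libraries lay above DMSO and both 7F8 libraries below it. The log2 differences were 0.20 for 5G6 and -0.39 for 7F8, each with an adjusted p of 1. After scaling they were 0.04 and -0.28, and the 5G6 libraries overlapped DMSO while those of 7F8 stayed below it. The gene lies at chr2:20200797-20225433 on the minus strand of GRCh38.

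SDC4, a widely expressed syndecan of focal adhesions, had the largest standard error of the tested members. At 4 h it had 53.5 and 97.6 TPM with 5G6, 70.4 and 102 TPM with 6D7, 83.9 and 308 TPM with 7F8, and 72.2 and 107 TPM with DMSO. Every compound group of 4 h overlapped DMSO, and the second 7F8 library stood far above all others. The difference for 7F8 was 0.87 on the log2 scale (SE 0.53, adjusted p = 1), and it was -0.06 without that library. The same library was also the highest of its time for SDCBP, and TRNC took 15.3% of its TPM, the lowest share where TRNC was listed. Whether these values bear on one another was not tested.

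At 48 h SDC4 had 76.5 and 83.1 TPM with 5G6, 144 and 99.9 TPM with 6D7, 85.7 and 182 TPM with 7F8, and 72.2 and 85.2 TPM with DMSO. By TPM the 6D7 and 7F8 libraries lay above DMSO, the nearest 7F8 library by less than 1 TPM. After scaling, 6D7 overlapped DMSO, with 115 and 72.4 against 74.9 and 76.2 scaled TPM, while 7F8 stayed above it at 104 and 198. The 5G6 libraries, which overlapped DMSO by TPM, then lay above it at 87.0 and 77.2, a scaled log2 difference of 0.12 that did not pass. The log2 differences of 0.60 for 6D7 (95% interval -0.55 to 1.76) and 0.66 for 7F8 (-0.49 to 1.82) had adjusted p of 0.488 and 0.480, and were 0.27 and 0.92 after scaling, where neither passed.

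SDC4 lies at chr20:45325288-45348424 on the minus strand of GRCh38. Its promoter is shown because SDC4 had the largest standard error among the tested syndecans and its window held the single motif match among the 5 members searched, which did not include SDCBP or SDC2. The window runs from 250 bases before to 50 after the start site, at chr20:45348375-45348674 on the minus strand of RefSeq GRCh38.p14, 5′ to 3′, with the match to the NF-kB consensus in capitals:
SDC4: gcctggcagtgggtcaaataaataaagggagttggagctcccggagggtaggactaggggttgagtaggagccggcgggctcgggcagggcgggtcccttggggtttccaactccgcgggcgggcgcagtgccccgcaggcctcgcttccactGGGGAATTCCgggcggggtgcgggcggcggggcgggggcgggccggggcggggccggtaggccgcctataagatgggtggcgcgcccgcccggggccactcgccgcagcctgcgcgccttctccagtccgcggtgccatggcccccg
The capitals begin 97 bases before the start site. The windows of SDC1, SDC3, SDC4, ARF6 and PLD2, of which SDC1 had 2, were taken from the RefSeq table and searched on both strands for the NF-kB consensus, the E-box CACGTG of the lysosomal CLEAR element, the sterol regulatory element TCACNCCAC and the ATF4 element TGATGNAAT. No other match was found in these 6 windows, which says only that these letters are not there. Of the 35116 RefSeq promoters searched, 5.91% held the NF-kB consensus, 7.26% the E-box, 1.13% the sterol element and 0.991% the ATF4 element.

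SDC3 was low and SDC2 near the limit of detection. SDC3, a syndecan known mainly from nervous tissue, had 5.11 and 9.40 TPM with 5G6, 6.72 and 13.7 TPM with 6D7, 3.40 and 5.44 TPM with 7F8, and 6.08 and 10.2 TPM with DMSO at 48 h. Both 7F8 libraries lay below DMSO and the other groups overlapped it. The 7F8 difference was -0.74 on the log2 scale (SE 0.35, adjusted p = 0.223), and -0.52 after scaling. Those for 5G6 and 6D7 were -0.16 and 0.26 (adjusted p of 0.875 and 0.668), and -0.08 and -0.04 after scaling. At 4 h all SDC3 values lay between 5.60 and 7.64 TPM, and both 6D7 libraries, at 6.16 and 5.60 TPM, lay below DMSO at 6.66 and 6.33 TPM, a log2 difference of -0.12 with an adjusted p of 1. SDC3 lies at chr1:30869466-30909735 on the minus strand of GRCh38. SDC2, a syndecan of mesenchymal cells, stood at 0.117 to 0.676 TPM in the 16 libraries and was not tested.

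The ratio of SDCBP to the summed syndecan TPM does not change with the scaling between libraries. At 48 h it was 1.22 and 1.30 with 5G6, 1.58 and 1.30 with 6D7, 1.33 and 1.08 with 7F8, and 0.505 and 0.541 with DMSO, which again rests on the values that chose SDCBP. At 4 h the ratio was 0.788 and 0.705 with 5G6, 0.782 and 0.809 with 6D7, 0.716 and 0.720 with 7F8, and 0.592 and 0.647 with DMSO. All 6 compound libraries of 4 h lay above both DMSO libraries, although SDCBP itself did not pass its test at that time, and no test was made of the ratio. Both 7F8 libraries of 4 h also lay below DMSO in SDC1, and SDC4 made up 27.1 to 77.6% of syndecan TPM across libraries, with the highest share in the second 7F8 library of 4 h.

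**Figure D2:**
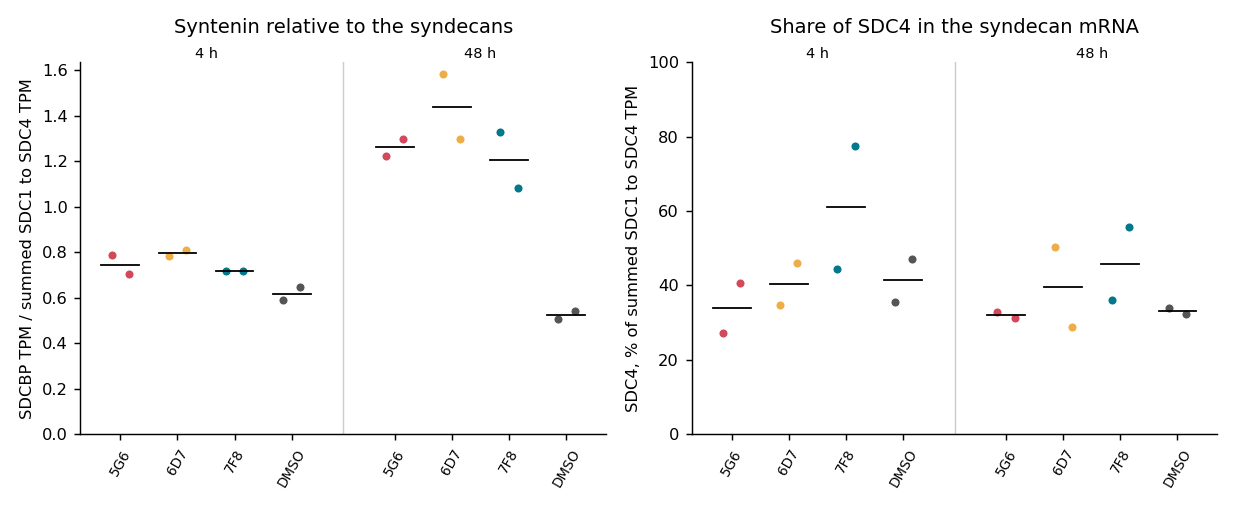
Left, TPM of SDCBP divided by the summed TPM of SDC1 to SDC4; right, SDC4 as a percentage of that sum, both starting at 0; dots are libraries and bars the means of 2. The ratio was 1.08 to 1.58 in the compound libraries of 48 h against 0.505 and 0.541 in DMSO, and 0.705 to 0.809 against 0.592 and 0.647 at 4 h.

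ARF6, the GTPase that drives endocytic recycling and activates PLD2, passed the test between 2 compounds at 48 h and not against DMSO. At 48 h it had 65.0 and 63.7 TPM with 5G6, 91.6 and 79.3 TPM with 6D7, 45.9 and 53.3 TPM with 7F8, and 78.5 and 61.6 TPM with DMSO. By TPM the 6D7 libraries lay above DMSO and the 7F8 libraries below it. Against DMSO the log2 differences were -0.11 for 5G6, 0.29 for 6D7 and -0.48 for 7F8, with adjusted p of 0.847, 0.398 and 0.181. After scaling they were -0.02, -0.04 and -0.23, and both 6D7, at 73.5 and 57.5, and 7F8, at 55.9 and 58.0, overlapped DMSO at 81.5 and 55.1 scaled TPM. At 4 h ARF6 had 62.6 and 93.6 TPM with 5G6, 64.8 and 74.9 TPM with 6D7, 64.1 and 70.7 TPM with 7F8, and 66.3 and 76.7 TPM with DMSO. The groups of 4 h overlapped. The log2 differences were 0.10, -0.03 and -0.08 for 5G6, 6D7 and 7F8, each with an adjusted p of 1, and -0.064, -0.089 and 0.023 after scaling. The gene lies at chr14:49893082-49897054 on the plus strand of GRCh38.

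The 6D7 libraries exceeded those of 7F8 in ARF6 by 0.77 on the log2 scale (SE 0.21, adjusted p = 0.0327, limma), in a comparison in which 16.5% of all genes were called, 16.3% as higher with 6D7. The median gene was itself 0.50 higher with 6D7 than with 7F8. After median-of-ratios scaling the ARF6 difference was 0.19 with an adjusted p of 0.829, and 0.471% of genes were called. The call also ended without the first 6D7 library or without either 7F8 library, with values between 0.67 and 0.88.

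PLD2, the phospholipase downstream of ARF6, had the smallest ratio of highest to lowest library among the members, 1.98. Over the 16 libraries it stood between 9.31 and 18.5 TPM. At 48 h it had 10.3 and 15.8 TPM with 5G6, 13.4 and 18.5 TPM with 6D7, 9.93 and 18.1 TPM with 7F8, and 10.7 and 16.9 TPM with DMSO, and every compound overlapped DMSO. The log2 differences from DMSO were -0.07, 0.21 and 0.00, with adjusted p of 0.944, 0.696 and 1, and 0.02, -0.10 and 0.24 after scaling. Both 7F8 libraries of 4 h, at 13.4 and 11.9 TPM, lay above DMSO at 11.5 and 9.31 TPM, a log2 difference of 0.26 with an adjusted p of 1. The gene lies at chr17:4807101-4823432 on the plus strand of GRCh38.

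**Figure D3:**
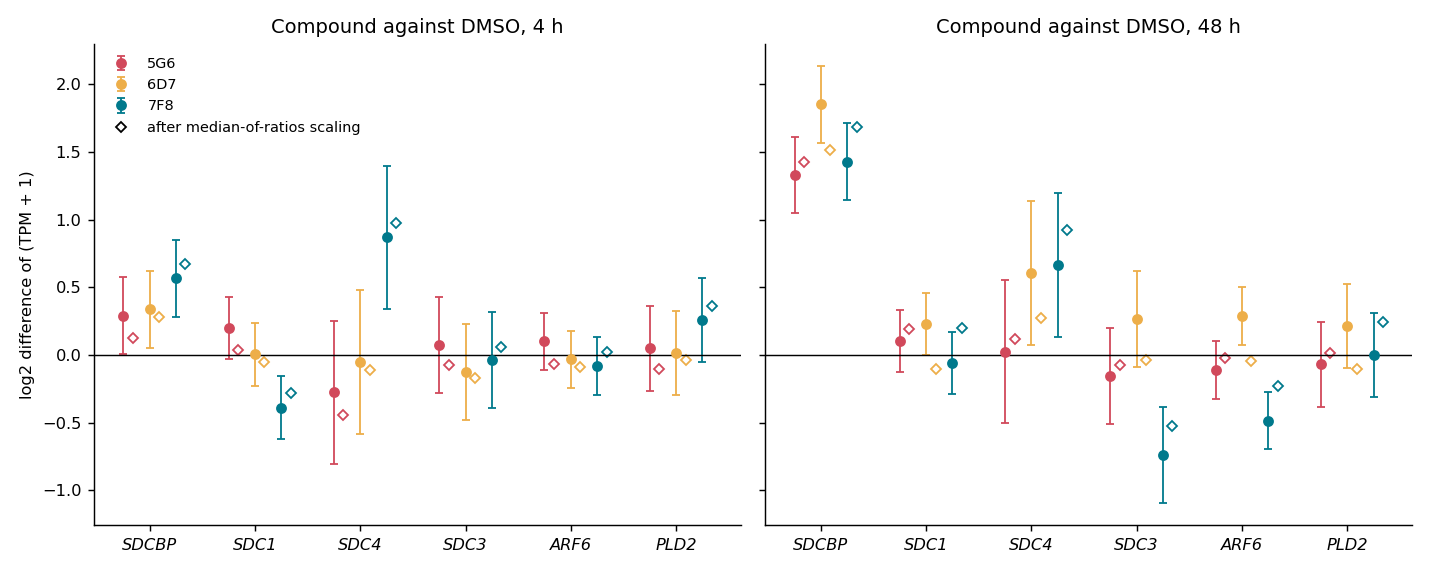
Log2 difference of (TPM + 1) between each compound and DMSO at 4 h (left) and 48 h (right) for the 6 tested members; filled dots are TPM with the standard error of the limma fit, open diamonds the values after median-of-ratios scaling. SDCBP at 48 h stands at 1.33 to 1.85, above every other point, and none of the other differences from DMSO passed the test.

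Counted together, none of the 6 tested members passed the test against DMSO at 4 h, where 0.0196% of all genes were called with 5G6 and 0.0% each with 6D7 and 7F8. At 48 h, where 3.38% of genes were called with 5G6, 12.4% with 6D7 and 8.49% with 7F8, none of the 5 members tested there passed either, at adjusted p between 0.181 and 1. After scaling none passed as well, where 3.93%, 6.32% and 7.51% of genes were called. At an unadjusted p below 0.05 there were 0 at 4 h and 1 at 48 h, ARF6 with 7F8. The 3 comparisons of a time share their DMSO libraries. At 4 h, 1 of the 5 members other than SDCBP lay above DMSO without overlap with 5G6 (SDC1), against 26.9% of all genes (5.21% were lower), and 1 lay below it with 6D7 (SDC3), against 6.5% (16.1% were higher). With 7F8, 1 was higher (PLD2) and 1 lower (SDC1), against 9.98% and 23.0%. Groups without overlap were found at 48 h for 2 of the 5 members as higher and for 0 as lower with 6D7, against 45.2% and 10.0% of all genes, and for 1 as higher and 2 as lower with 7F8, against 15.1% and 41.1%. With 5G6 none of the 5 was free of overlap, against 19.4% of genes as higher and 27.9% as lower. These counts are by TPM. After scaling, other groups of 48 h were free of overlap, such as SDC1 and SDC4 with 5G6, and no share of all genes was taken there.

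Across members, the 3 compounds were compared as 3 pairs at each time and the same dose, with p-values adjusted over all genes of a pair. At 4 h none of the 6 members passed, where 0.0% of genes were called for 5G6 against 6D7, 0.0131% for 5G6 against 7F8 and 0.0% for 6D7 against 7F8, and 1 member had an unadjusted p below 0.05. The nearest was SDC1, which was 0.59 higher with 5G6 than with 7F8 on the log2 scale (limma, adjusted p = 0.375), and 0.32 higher after scaling. In SDCBP at 4 h 5G6 differed from 6D7 by -0.05 (95% interval -0.67 to 0.57), 5G6 from 7F8 by -0.28 (-0.90 to 0.34) and 6D7 from 7F8 by -0.23 (-0.85 to 0.39), with adjusted p of 1, 0.731 and 0.988. At 48 h ARF6 between 6D7 and 7F8 was the 1 call, while 0.0196% of genes were called for 5G6 against 6D7 and 0.34% for 5G6 against 7F8, and 2 members had an unadjusted p below 0.05 between 6D7 and 7F8. The other was SDC3, which was higher with 6D7 by 1.00 with an adjusted p of 0.0685, or 0.49 after scaling. The structures of the compounds are not given.

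None of the 5 members other than SDCBP passed the test of a difference in response between the times. The differences at 48 h minus those at 4 h lay between -0.70 and 0.66 on the log2 scale, with adjusted p of at least 0.737 and 0 at an unadjusted p below 0.05, in comparisons in which 0.0% (5G6), 0.0393% (6D7) and 0.00654% (7F8) of genes were called. In DMSO at 48 h against 4 h the 5 members differed by -0.16 to 0.34 with an adjusted p of 0.999 each and 0 at an unadjusted p below 0.05, and 0.0% of genes were called.

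Levels between the members depend on the measure. In TPM SDCBP averaged 237 over the 16 libraries, SDC1 138, SDC4 108, ARF6 69.5, PLD2 12.6, SDC3 6.95 and SDC2 0.355. In the deposited coverage column, SDC1 averaged 459, SDC4 419, SDCBP 393, ARF6 268, PLD2 40.4, SDC3 23.8 and SDC2 0.361. The order of the leading 3 thus turned, while the order of the other 4 was the same. Relative to ARF6, FPKM per unit of coverage was 2.24 to 2.26 for SDCBP and 1.14 to 1.15 for SDC1. The reason for this difference between genes was not tested.

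Around the members, 119 genes in 6 lists from general knowledge covered ALIX and ESCRT, heparan sulfate synthesis, other heparan sulfate proteoglycans, cleavage of syndecans, ARF6 regulators and other syntenin partners, and 100 of them were tested. At 4 h none was called with any compound, and 4, 0 and 2 had an unadjusted p below 0.05 with 5G6, 6D7 and 7F8. At 48 h no gene was called with 5G6, where 6 had an unadjusted p below 0.05, 17 were called as higher and 0 as lower with 6D7, and 2 as higher and 1 as lower with 7F8. Of all genes, 3.38% were called with 5G6, 10.9% as higher and 1.52% as lower with 6D7, and 2.08% as higher and 6.4% as lower with 7F8. After median-of-ratios scaling the counts were 1 for 5G6, 0 for 6D7 and 7 for 7F8, of which 6 were higher, and the 3 TPM calls of 7F8 were among them. Of all genes, 3.93%, 6.32% and 7.51% were called after scaling, so that the count over all lists together did not exceed that share. Single lists of few genes did exceed it. With 5G6 11.1% of the 9 tested cleavage genes were called. With 7F8 22.2% of these, 11.1% of the 9 other proteoglycans and 10% of the 20 ARF6 regulators were. The medians of the 100 genes were 0.06, 0.40 and -0.03 for 5G6, 6D7 and 7F8, against -0.07, 0.29 and -0.21 for all genes, and 0.14, 0.09 and 0.20 after scaling, where those of all genes were 0.01, 0.01 and 0.00.

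In the ALIX and ESCRT list, 7 of 31 tested genes were called as higher with 6D7 by TPM, the highest count of a list, against 10.9% of all genes. None was called after scaling, against 6.32% of all genes in either direction. PDCD6IP, which encodes ALIX, had 77.7 and 76.9 TPM with 6D7, 62.0 and 59.2 TPM with 7F8, 52.8 and 60.3 TPM with 5G6, and 39.9 and 54.4 TPM with DMSO at 48 h. Its 6D7 and 7F8 libraries lay above DMSO, as did those of 45.2% and 15.1% of all genes. The log2 difference was 0.72 with 6D7 (adjusted p = 0.0290) and 0.37 with 7F8 (adjusted p = 0.245), and after scaling 0.39 (0.175) and 0.62 (0.0345). ALIX was thus called with 6D7 by TPM and with 7F8 after scaling. Leaving out 1 library moved its TPM difference to between 0.50 and 0.94 with 6D7 and between 0.15 and 0.59 with 7F8. With libraries of 1 time point alone the 6D7 call ended (adjusted p = 0.0863, limma). TSG101, MVB12A and CHMP4B, subunits of the ESCRT complexes, rose by 0.79, 0.85 and 0.76 with 6D7 by TPM and had adjusted p of 0.191, 0.154 and 0.336 after scaling. Without the first DMSO library of 48 h, no gene of the lists was called with 6D7, without the first 6D7 library 1 was, and without the second DMSO library 7 were.

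Of the enzymes that cut syndecans or their chains, CTSL and MMP7 were called with 7F8 under both scalings. CTSL, the lysosomal protease cathepsin L that can activate heparanase, had 927 and 1258 TPM with 5G6, 686 and 1612 TPM with 6D7, 1056 and 923 TPM with 7F8, and 482 and 428 TPM with DMSO at 48 h. All compound libraries lay above DMSO, as did those of 19.4%, 45.2% and 15.1% of all genes with 5G6, 6D7 and 7F8. Its log2 differences were 1.25, 1.21 and 1.12 with adjusted p of 0.0528, 0.0284 and 0.0476, and after scaling 1.34 (0.0369), 0.87 (0.121) and 1.38 (0.0223).

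MMP7, matrilysin, which sheds the SDC1 ectodomain in mouse lung, fell with 7F8 to 1.78 and 6.40 TPM, against 18.7 and 18.2 TPM in DMSO at 48 h. The libraries did not overlap, and 41.1% of all genes lay below DMSO in this way with 7F8. The log2 difference of MMP7 was -2.10 (SE 0.54, adjusted p = 0.0345), or -1.90 after scaling (0.0422). Its values were 24.4 and 29.6 TPM with 5G6 and 14.3 and 29.7 TPM with 6D7, log2 differences of 0.52 and 0.15 that did not pass, the second being -0.17 after scaling. HPSE, heparanase itself, was at most 1.10 TPM in any library. It had 0.207 and 0.301 TPM with 5G6, against 0.684 and 1.03 TPM with DMSO at 48 h, a log2 difference of -0.56 with an adjusted p of 0.298.

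The proteoglycan AGRN, agrin of basement membranes, had 273 and 203 TPM with 7F8, against 135 and 130 TPM with DMSO at 48 h. Both 7F8 libraries lay above DMSO, as did those of 15.1% of all genes. The rise was 0.83 on the log2 scale (SE 0.19, adjusted p = 0.0223), and 1.08 after scaling (0.0191). None of the 3 calls of 7F8 by TPM held in every fit that left out a library: AGRN and MMP7 each kept an adjusted p below 0.05 in 1 of 4 such fits and CTSL in 0 of 4. Each of the 3 calls ended without the first 7F8 library and without either DMSO library, and that of CTSL also without the second 7F8 library. The highest adjusted p were 0.223 for AGRN, 0.293 for MMP7 and 0.260 for CTSL.

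Among the ARF6 regulators, the exchange factors CYTH1 and CYTH2, PSD4 and the small GTPase RALA were called as higher with 6D7 by TPM and not after scaling. With 7F8 no gene of this list was called by TPM, and CYTH2 and PLD1 were after scaling. CYTH2 had 58.6 and 66.3 TPM with 7F8, against 36.3 and 48.1 TPM with DMSO at 48 h, a log2 difference of 0.57 (adjusted p = 0.170), or 0.82 after scaling (0.0343). PSD4 lies outside the rule for named genes. RALA, which is known from worm and mouse tumour cells to act in exosome secretion, had 146 and 50.2 TPM with 6D7, against 28.97 and 27.3 TPM with DMSO at 48 h. Both 6D7 libraries were higher, as for 45.2% of all genes, but unequal. The log2 difference was 1.58 (adjusted p = 0.0176), or 1.24 after scaling (0.0915). Without the first 6D7 library it was 0.81 (adjusted p = 0.0638), and without the second 2.34. The call also ended without either DMSO library.

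PLD1, the other phospholipase D that ARF6 activates, had 11.7 and 19.5 TPM with 5G6, 14.9 and 28.8 TPM with 6D7, 18.7 and 29.9 TPM with 7F8, and 3.12 and 14.6 TPM with DMSO at 48 h. The 6D7 and 7F8 libraries lay above DMSO, as did those of 45.2% and 15.1% of all genes, and the DMSO pair was far apart. The 7F8 difference was 1.62 on the log2 scale (SE 0.51, adjusted p = 0.0710), and 1.87 after scaling (0.0269). It was 0.66 without the first DMSO library and 2.58 without the second, at adjusted p of 0.405 and 0.0208. PLD2, by contrast, differed from DMSO by 0.00 with 7F8, but the difference between both genes was not tested.

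In heparan sulfate synthesis, EXT1, PAPSS2 and B4GALT7 were called with 6D7 by TPM and not after scaling. EXT1, a polymerase of the chains, had 87.1 and 47.2 TPM with 6D7, against 30.6 and 31.2 TPM with DMSO at 48 h, a log2 difference of 1.03 (adjusted p = 0.0300) that was 0.60 without the first 6D7 library (0.206). Its partner EXT2 passed only with 7F8 after scaling, with 78.4 and 78.5 TPM against 40.8 and 63.5 TPM in DMSO and a scaled log2 difference of 0.87 (adjusted p = 0.0310). EXT2 lies outside the rule for named genes and was chosen after its values were seen.

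Of the other syntenin partners, RAB7A, the GTPase of late endosomes, and CD63 were called with 6D7 by TPM and not after scaling. RAB7A had 217 and 228 TPM with 6D7, against 123 and 133 TPM with DMSO at 48 h, a log2 difference of 0.79 (adjusted p = 0.0159), or 0.46 after scaling (0.0911). CD63 had 2565 and 2045 TPM with 6D7, 1772 and 1757 TPM with 5G6, 1290 and 1046 TPM with 7F8, and 1313 and 1459 TPM with DMSO at 48 h. The 6D7 difference was 0.73 on the log2 scale (adjusted p = 0.0393) and 0.39 after scaling (0.394). With libraries of 1 time point alone both 6D7 calls ended, at adjusted p of 0.0563 for RAB7A and 0.0762 for CD63 in limma. Transcripts of the CD63 gene and of the overexpressed fusion were not told apart in these values. SDCBP2, which encodes syntenin 2, stood between 0.00955 and 1.59 TPM and did not pass the filter.

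**Figure D4:**
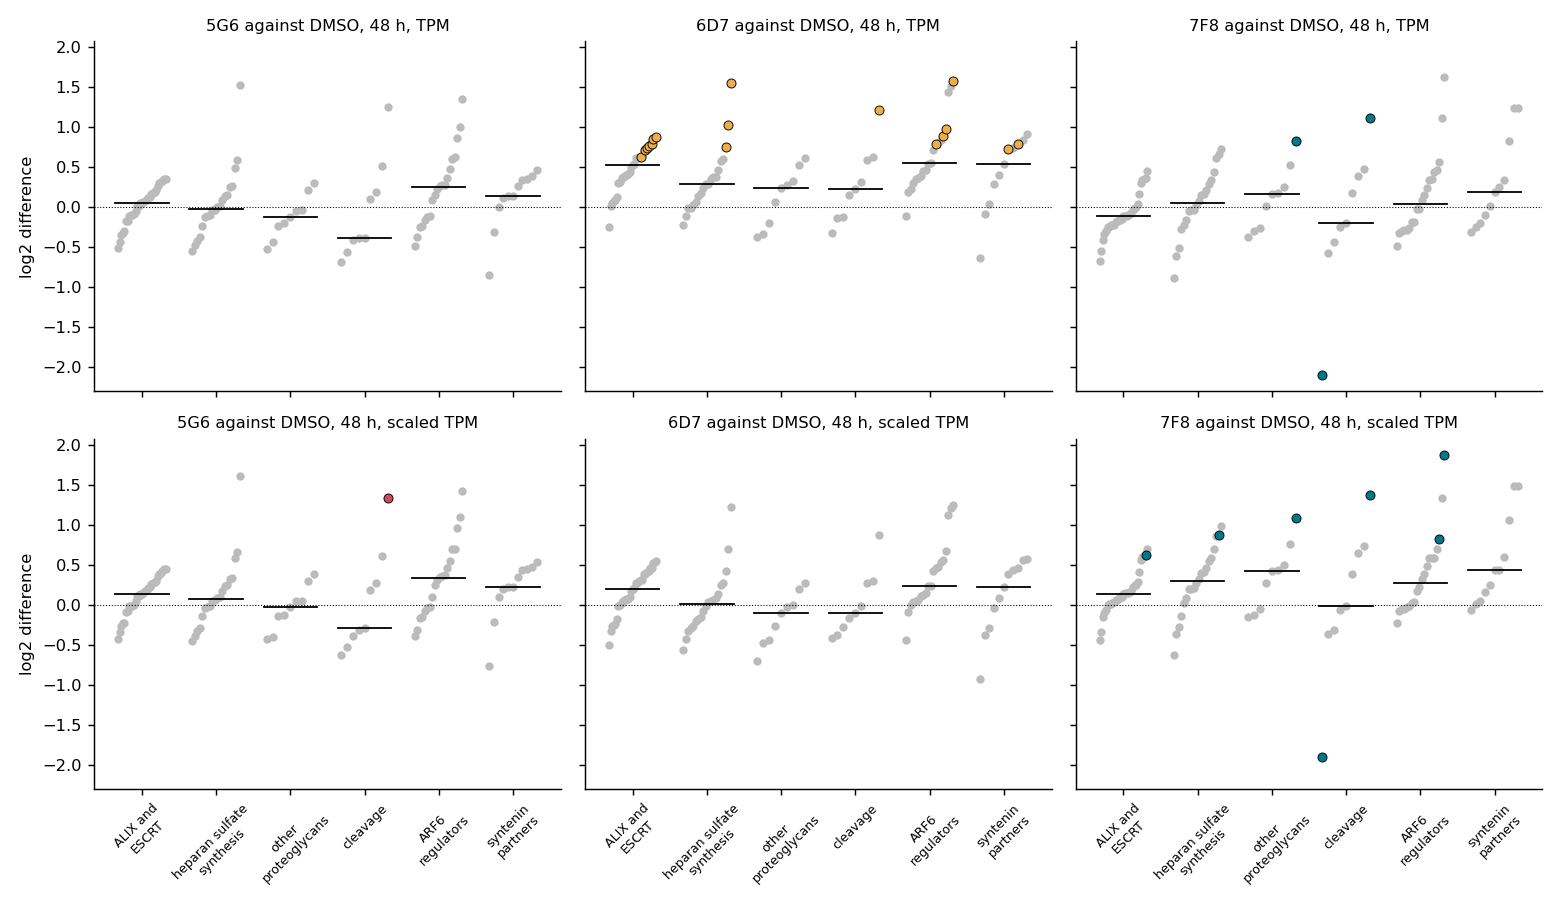
Log2 differences from DMSO at 48 h of the 100 tested list genes (vertical axes), by list, for 5G6, 6D7 and 7F8 from left to right, by TPM (top) and after median-of-ratios scaling (bottom); coloured dots have an adjusted p below 0.05 and bars are list medians. With 6D7, 17 genes were called by TPM and 0 after scaling, against 12.4% and 6.32% of all genes. With 7F8 the counts were 3 and 7, against 8.49% and 7.51% of all genes.

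The genes whose pattern over the 8 group means was most like that of SDCBP were OPTN, PSAP, TMEM187, YPEL5 and SARAF, with Pearson r of 0.991, 0.989, 0.987, 0.987 and 0.985 on log2(TPM + 1) among 9933 genes. These r describe 8 means that share their libraries and scaling, and include the values that chose SDCBP. Over the 16 libraries r was 0.706 for TMEM187 and at least 0.943 for the other 4, and over the group means after scaling it was 0.864 for TMEM187 and at least 0.977 for the others. TMEM187 passed no test against DMSO. OPTN, the autophagy receptor optineurin, had 80.4 and 76.9 TPM with 5G6, 149 and 97.3 TPM with 6D7, 83.3 and 84.8 TPM with 7F8, and 33.4 and 31.5 TPM with DMSO at 48 h. All compound libraries lay above DMSO, and the adjusted p of OPTN in limma were 0.0102, 0.000742 and 0.00536. Of all genes, 3.38%, 12.4% and 8.49% were called with 5G6, 6D7 and 7F8, and 19.4%, 45.2% and 15.1% lay above DMSO without overlap. The genes most and least like SDCBP were picked by a pattern that includes these 48 h values. Their adjusted p at 48 h, here and below, therefore follow in part from that choice and are given as a description.

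PSAP, the precursor of the lysosomal saposins, had 1197 and 1438 TPM with 5G6, 1584 and 2068 TPM with 6D7, 1328 and 1410 TPM with 7F8, and 508 and 731 TPM with DMSO at 48 h. Its adjusted p in limma, again as a description, were 0.0237, 0.00252 and 0.0119. The least like were TIMELESS, CHAF1B and CYP24A1, with r of -0.973, -0.972 and -0.970, of which the first acts at replication forks and the second in chromatin assembly. CHAF1B had 2.79 and 3.70 TPM with 5G6, 1.32 and 4.82 TPM with 6D7, 3.05 and 3.32 TPM with 7F8, and 13.0 and 10.5 TPM with DMSO at 48 h. It was lower with each compound, at adjusted p of 0.0429, 0.0131 and 0.0245 in limma, which are also a description after the choice by r.

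Of the other members, PLD2 was the most like SDCBP, with an r of 0.71 that ranked 1839th of 9933 genes. SDC1 had an r of 0.52, SDC4 of 0.46, SDC3 of 0.08 and ARF6 of -0.13. None of the members was thus among the genes that followed SDCBP most closely over the groups.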

How the data were processed

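Polyadenylated RNA of 16 libraries was measured, 8 groups of 2, mapped to treatments by GEO's labels. The submitters' processing notes name STAR 2.6.1a, featureCounts 1.6.3, StringTie 2.0 and GRCh38, without the role or order of each. The deposited gene abundance tables hold TPM and FPKM per gene and, per the file headers, coverage, a signal whose computation is not given in the sources used here. No read counts were used. Rows that share a gene name were summed.

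Genes with at least 1 TPM in at least 2 libraries (15285 of 26182 above 0) were fitted as log2(TPM + 1) with limma 3.58.1 in R 4.3.3 (group means of all 16 libraries, 8 residual degrees of freedom, empirical Bayes with trend, prior degrees of freedom 3.94 at the median). All p are two-sided. The Benjamini-Hochberg adjustment ran over all genes of a comparison, of which there were 16, and 0.05 was the threshold for a call. A difference on this scale understates the change of low genes. Nothing beyond the series description says that libraries came from separate cultures, and p-values measure only the spread between these libraries.

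Promoters on chromosome 8 were not searched. Median-of-ratios size factors (0.820 to 1.38) came from the tested genes. Intervals are 95% intervals of the fit. The procedure was tested on simulated data. Python 3.11.15 with numpy 2.4.6 and pandas 2.3.3 served for the tables, and matplotlib 3.10.9 for the plots.

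Named genes were the members, up to 3 called genes with the smallest p per list, compound and time, PDCD6IP, HPSE, PLD1, CD63 and SDCBP2, and the 5 most and 3 least like SDCBP with a mean of at least 5 TPM. Members and lists were chosen with earlier results of these data known. Alternatives were median-of-ratios scaling, TPM without TRNC and TRNY, FPKM, no trend, no filter, a pseudocount of 0.1, libraries of 1 time point, a replicate block and leaving out each library. The block together with scaling was added after the data were seen.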

Additional observations from a re-analysis of the deposited data

Results flagged for a closer look

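ARF6 at 48 h was higher with 6D7 than with 7F8, by 0.77 on the log2 scale with an adjusted p of 0.0327 in limma, a difference between compounds that passed its own test. In that comparison 16.5% of all genes were called, and the median gene was 0.50 higher with 6D7. By TPM the ARF6 libraries lay on opposite sides of DMSO, with all 6D7 libraries above it (0.29) and all 7F8 libraries below it (-0.48). Neither difference from DMSO passed. Of all genes, 45.2% lay above DMSO without overlap with 6D7 and 41.1% below it with 7F8. After median-of-ratios scaling both compounds overlapped DMSO, with 73.5 and 57.5 for 6D7 and 55.9 and 58.0 for 7F8, against 81.5 and 55.1 scaled TPM for DMSO. The 6D7 difference from DMSO was then -0.04 and the difference between the compounds 0.19 (adjusted p = 0.829).

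SDC1 at 4 h was by TPM also on opposite sides of DMSO, with both 5G6 libraries above it (0.20) and both 7F8 libraries below it (-0.39). Of all genes, 26.9% lay above DMSO without overlap with 5G6 and 23.0% below it with 7F8. The median gene differed from DMSO by 0.13 and -0.10. The direct test of 5G6 against 7F8 gave 0.59 with an adjusted p of 0.375. After scaling the differences from DMSO were 0.04 and -0.28. The 5G6 libraries then overlapped DMSO, with 135 and 119 against 127 and 120 scaled TPM, while those of 7F8 stayed below it at 116 and 88.9.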

How the results depend on the processing

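No difference from DMSO of the members other than SDCBP was called under any of the alternatives, so the changes of sign below are among values that did not pass. With FPKM the signs turned for ARF6 (5G6 at 4 h -0.030, 6D7 at 48 h -0.10), PLD2 (5G6 at 4 h -0.068, 6D7 at 4 h -0.032, 6D7 at 48 h -0.15), SDC1 (6D7 at 4 h -0.050, 6D7 at 48 h -0.16, 7F8 at 48 h 0.042) and SDC3 (5G6 at 4 h -0.038, 6D7 at 48 h -0.080). SDCBP with 6D7 at 48 h was 1.45, no member was called between 6D7 and 7F8 (0), and the list genes called at 48 h were 1, 0 and 5 for 5G6, 6D7 and 7F8. The share of all genes called was taken only for the main fit and for scaling alone. List counts under the other alternatives, here and below, stand without it.

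Without TRNC and TRNY, with 6D7 at 48 h, ARF6 was -0.12, PLD2 -0.17, SDC1 -0.18, SDC3 -0.11 and SDCBP 1.44, and with 6D7 at 4 h PLD2 was -0.016 and SDC1 -0.031. No member was called between 6D7 and 7F8 (0), and the list counts were 1 for 5G6 and 0 for 6D7.

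Median-of-ratios scaling, with or without the replicate block, gave ARF6 -0.064 (5G6 at 4 h), 0.023 (7F8 at 4 h) and -0.044 (6D7 at 48 h), and PLD2 -0.10 (5G6 at 4 h), -0.035 (6D7 at 4 h), 0.017 (5G6 at 48 h) and -0.10 (6D7 at 48 h). It gave SDC1 -0.051 (6D7 at 4 h), -0.10 (6D7 at 48 h) and 0.20 (7F8 at 48 h), SDC3 -0.073 (5G6 at 4 h), 0.059 (7F8 at 4 h) and -0.036 (6D7 at 48 h), and SDCBP 1.52 (6D7 at 48 h) and 1.68 (7F8 at 48 h). With scaling alone 0 members were called between 6D7 and 7F8. With 5G6, 6D7 and 7F8 at 48 h 1, 0 and 7 list genes were called, against 3.93%, 6.32% and 7.51% of all genes. With the replicate block and scaling together, chosen after seeing the data, the list counts were 4, 4 and 15.

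With libraries of 1 time point alone, 0 members were called between 6D7 and 7F8, and 1 list gene with 6D7 and 0 with 7F8. Without the filter the list counts were 10 with 6D7 and 1 with 7F8, and with a pseudocount of 0.1 PLD2 with 7F8 at 48 h was -0.0011. The cause of these changes was not tested.

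The main fit did not treat replicate numbers as pairs, as not every pair of groups met the rule used. Deviations of equal numbers correlated at 0.0576 to 0.63 over 28 pairs of groups (median 0.328), and 3 pairs lay below 0.1, all between the times. The 12 pairs within a time, where the compounds were compared with DMSO and with each other, lay between 0.383 and 0.63. Libraries of equal number thus shared part of their deviation within a time, which the main fit leaves out. With the replicate block, 2 members were called between 6D7 and 7F8, as SDC3 passed beside ARF6 (1.00, adjusted p = 0.0198). CTSL with 5G6 (0.0252) and PLD1 with 7F8 (0.0211) passed as well at 48 h, and 3, 35 and 10 list genes were called with 5G6, 6D7 and 7F8 at 48 h.

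Leaving out each library in turn gave, at 4 h with 5G6, ARF6 -0.19 to 0.39, SDC3 -0.059 to 0.21, SDC4 -0.70 to 0.15 and PLD2 -0.093 to 0.19. With 6D7 it gave SDC1 -0.068 to 0.077, SDC4 -0.33 to 0.23, ARF6 -0.14 to 0.070 and PLD2 -0.13 to 0.16, and with 7F8 SDC3 -0.075 to 0.0058, SDC4 -0.064 to 1.80 and ARF6 -0.19 to 0.021. At 48 h it gave, with 5G6, SDC1 -0.056 to 0.26, SDC3 -0.54 to 0.23, SDC4 -0.094 to 0.14, ARF6 -0.28 to 0.062 and PLD2 -0.38 to 0.24. With 6D7 it gave SDC1 -0.16 to 0.62, SDC3 -0.20 to 0.73 and PLD2 -0.094 to 0.52, and with 7F8 SDC1 -0.22 to 0.10 and PLD2 -0.40 to 0.40. Members called between 6D7 and 7F8 at 48 h were 0 to 1, and list genes called were 0 to 15 with 6D7 and 0 to 2 with 7F8. In these fits the lone library of a group is assumed to vary like the other groups.

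The precision is limited by 2 libraries a group and by values without read counts. The 95% intervals of the members' differences from DMSO show what remains unresolved, for ARF6 with 7F8 at 48 h from -0.95 to -0.022 and for SDC4 with 7F8 at 4 h from -0.29 to 2.02.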
